A study of Mus musculus with 8 samples.

Results

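The insulin-like growth factors Igf1 and Igf2, the receptors Igf1r and Igf2r, and the binding proteins Igfbp2 to Igfbp7 were followed in mouse yolk sacs with altered Notch signaling. These 10 genes are part of the 18194 genes that the array measured, and 9 of them were among the 10913 genes that passed a filter on low signals. A gene was a member when at least 1 probe set carried its symbol and no other. Where a gene had several probe sets, the value reported was selected on measured signal, as the probe set with the highest mean over all 8 arrays, and the other probe sets served as a check. The genes themselves were proposed with earlier results of these data known, and Igfbp3 stands among the secreted factors that the study listed from these same arrays, so its change is not independent evidence.

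Total RNA of whole yolk sac at embryonic day 9.5 was hybridised to Affymetrix mouse arrays, with 1 array per sample, 2 arrays per group and 8 arrays in all. EC-N1ICD yolk sacs (Tie2 Tg/0; ROSA +/N1ICD, strain C57BL6) expressed the Notch1 intracellular domain from the Rosa26 locus once Cre had removed a stop cassette, and were set against wild type yolk sacs (Tie2 0/0; ROSA +/+, strain C57BL6). EC-Rbpj-KO yolk sacs (Tie2-Cre; Rbpj flox/flox, strain mixed) lost RBPJ, the protein that carries activated Notch to DNA, in the cells where Cre acted. They were set against wild type yolk sacs of mixed strain for which the labels give no genotype. The Tie2 promoter drives Cre in endothelium and also in blood lineages, whereas the visceral endoderm and mesenchyme that make up much of the yolk sac lie outside those lineages. The labels name no group with Cre alone, so Cre and the recombined allele cannot be told apart. The labels do not say whether the 2 samples of a group came from different litters, and p-values measure only the spread between these samples. In each set, mutant replicate 2 and both wild types share the first number of their sample names while mutant replicate 1 has another. The meaning of that number is not stated.

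IGF1 and IGF2 are secreted growth factors that signal through the tyrosine kinase IGF1R, while IGF2R, which also carries lysosomal enzymes, binds IGF2 and leads it to degradation. Most IGF in tissue fluid is held by binding proteins, which can block the ligands, prolong their life or release them when proteases cut the complex. In the mouse, IGF2 is the main fetal growth factor and its gene is expressed from the paternal copy, Igf2r from the maternal copy.

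Igfbp3 was the member that moved most. It was close to 4-fold above wild type in both models, of which one activates Notch and the other removes RBPJ. Igf1 rose in EC-Rbpj-KO yolk sacs to 2.45 times wild type. Igf2, Igf1r, Igf2r, Igfbp2, Igfbp4, Igfbp5 and Igfbp7 did not pass the threshold in either model, and Igfbp6 was too dim to be tested.

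The promoters of the 2 genes that changed, and of the ligand gene that carries a copy of the core RBPJ recognition sequence, are shown because the models alter RBPJ and Notch activity. They run from 250 bases before to 50 bases after a transcription start, were taken from RefSeq (build GRCm38.p6), and are written along the strand of the gene. The Igfbp3 promoter lies at chr11:7213874-7214173 on the minus strand, that of Igf1 at chr10:87860861-87861160 on the plus strand, and the most upstream of 4 listed Igf2 promoters at chr7:142666767-142667066 on the minus strand. Capitals mark the RBPJ core.
Igfbp3 promoter: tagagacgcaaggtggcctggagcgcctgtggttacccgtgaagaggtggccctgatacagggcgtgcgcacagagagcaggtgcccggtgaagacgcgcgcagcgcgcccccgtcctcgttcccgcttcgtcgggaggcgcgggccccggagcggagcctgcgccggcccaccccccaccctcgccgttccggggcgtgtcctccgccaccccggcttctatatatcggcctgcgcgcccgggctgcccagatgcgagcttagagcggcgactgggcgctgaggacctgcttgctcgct
Igf1 promoter: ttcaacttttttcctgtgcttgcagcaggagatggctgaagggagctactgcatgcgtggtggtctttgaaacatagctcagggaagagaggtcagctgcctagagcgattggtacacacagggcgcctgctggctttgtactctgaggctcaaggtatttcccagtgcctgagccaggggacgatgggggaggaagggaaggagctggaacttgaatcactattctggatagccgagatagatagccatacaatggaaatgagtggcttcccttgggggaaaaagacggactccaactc
Igf2 promoter: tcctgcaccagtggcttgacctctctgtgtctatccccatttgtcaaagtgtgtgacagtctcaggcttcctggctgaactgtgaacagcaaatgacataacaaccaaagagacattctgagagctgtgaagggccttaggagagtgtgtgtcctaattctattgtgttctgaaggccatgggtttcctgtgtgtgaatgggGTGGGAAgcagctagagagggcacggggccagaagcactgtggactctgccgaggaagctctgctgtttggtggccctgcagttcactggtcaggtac
Every promoter was searched on both strands for the RBPJ core, GTGGGAA, and for the E-box, a palindrome with the letters CACGTG, which basic helix-loop-helix factors such as the HEY proteins can bind. Of 32851 promoters of this length, 6.38% held the RBPJ core and 7.15% the E-box. The promoters of Igfbp3, Igf1 and Igfbp1, the gene next to Igfbp3 on chromosome 11, held neither. Among the members, the Igf2 promoter shown held the only RBPJ core, which begins 48 bases before the start. The E-box lay 142 bases before the start in 1 of 2 Igfbp2 promoters, and 48 and 7 bases before the start in the Igf2r promoter. A match describes letters and is not a binding site, and letters outside these windows were not searched.

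The signal is a linear intensity in arbitrary units, and because probe sets differ in brightness it was compared between arrays and not between genes. Changes are log2 ratios of geometric means, with the standard error (SE) of a limma fit over all 8 arrays, 2 per group, and p-values adjusted with Benjamini-Hochberg over the 10913 genes, at a threshold of 0.05.

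The targeted genes were checked against the labels. Rbpj fell in EC-Rbpj-KO, with signals of 470 and 497 against 984 and 919 in wild type (-0.98, SE 0.17, adjusted p = 0.008658), in a tissue where only Tie2-lineage cells are recombined, and this call was lost without either wild type array of the set (-0.93, adjusted p = 0.07601, and -1.03, adjusted p = 0.06023). Notch1 had 455 and 538 in EC-N1ICD yolk sacs, against 453 and 335 in wild type (0.34, SE 0.20, adjusted p = 0.5535), and whether its probe set reads the transgene is not given in the sources used here. Xist, the RNA of the inactive X chromosome, had 3600 and 3730 in EC-N1ICD yolk sacs, against 96 and 96 in wild type. In EC-Rbpj-KO yolk sacs it had 2005 and 84, against 90 and 77 in wild type. Eif2s3y, a gene of the Y chromosome, had 9 and 9 in EC-N1ICD yolk sacs, against 702 and 837 in wild type. It had 12 and 827 in EC-Rbpj-KO yolk sacs, against 870 and 864 in wild type, so the arrays with high Xist had low Eif2s3y. The labels give no sex. Sex and genotype cannot be told apart in the EC-N1ICD set, and EC-Rbpj-KO replicate 1 stood apart from the other 3 arrays of its set. No member is on the X chromosome.

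**Figure D1:**
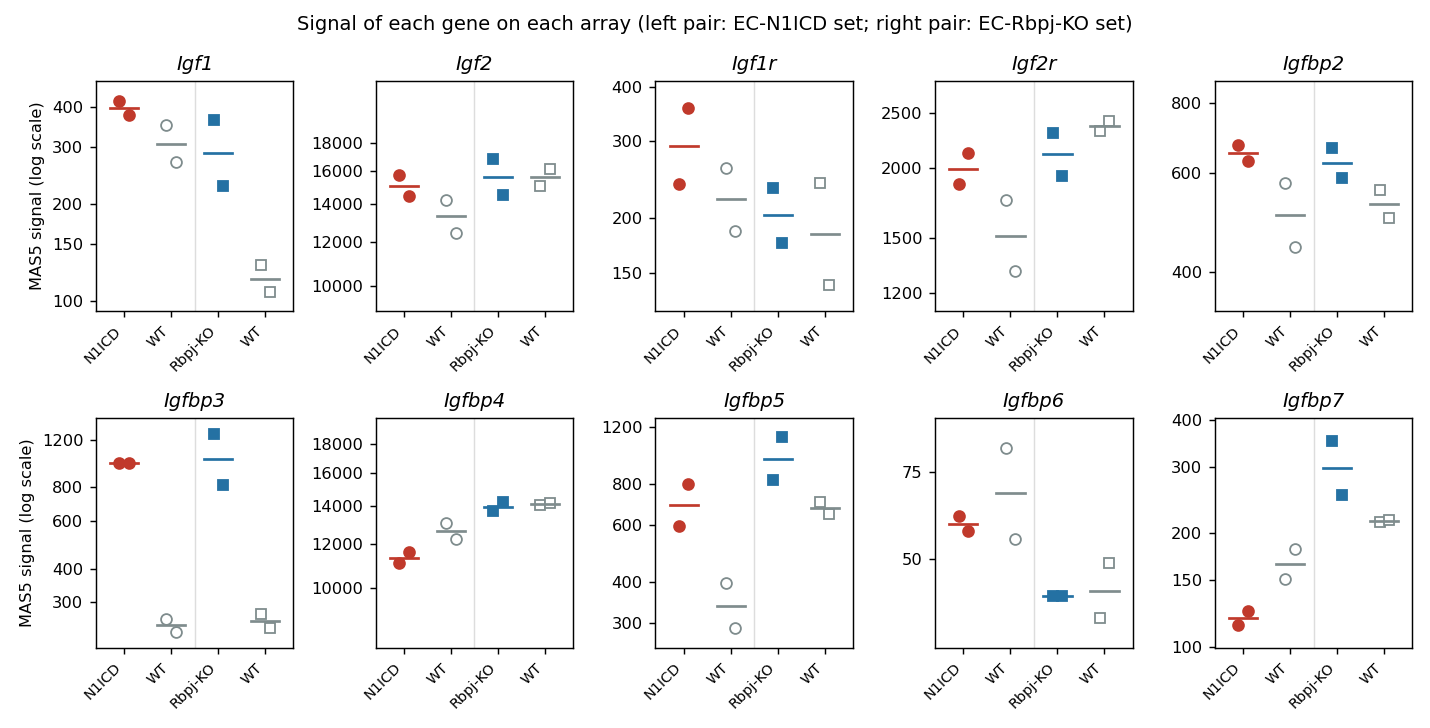
MAS5 signal (log axis) of the 10 genes on each of the 8 arrays, from left to right in EC-N1ICD, its wild type, EC-Rbpj-KO and its wild type; each point is 1 array and each bar the geometric mean of 2. Igfbp3 lay at 981 to 985 and 818 to 1260 in the mutants and at 234 to 272 on all 4 wild type arrays. Igf1 separated most clearly in the EC-Rbpj-KO set, and the points of Igf1r and Igfbp6 overlap in both sets.

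Among the ligands, Igf1 had signals of 418 and 378 in EC-N1ICD yolk sacs, against 351 and 269 in their wild type. Both mutant arrays lay above both wild type arrays, but the change of 0.37 (SE 0.25, adjusted p = 0.6245) did not pass. In EC-Rbpj-KO yolk sacs Igf1 had signals of 364 and 227, against 129 and 107 in wild type, and it rose by 1.29 (SE 0.25, adjusted p = 0.01383), a ratio of 2.45 with a 95% interval of 1.68 to 3.56. The groups did not overlap, and the 2 mutant signals lay farther apart than the 2 wild type signals. The other 3 Igf1 probe sets were higher on both EC-Rbpj-KO arrays as well, by ratios of 2.96, 2.69 and 3.33. The last had wild type signals of 40 and 21, below the medians of those arrays, which limits the size of its ratio. The wild types of the 2 sets, which differ in strain and in the endings of their sample names (meaning not stated), did not overlap for Igf1, at 129 and 107 in the EC-Rbpj-KO set and 351 and 269 in the EC-N1ICD set, and were not tested against each other. Igf1 lost its call without EC-Rbpj-KO replicate 1, the array with high Xist and the mutant array with a first number of its own (0.95, adjusted p = 0.05213), without replicate 1 of both mutants (0.95, adjusted p = 0.08398), without wild type replicate 2 of that set (1.16, adjusted p = 0.1174), and when only the 4 arrays of the set were fitted (1.29, adjusted p = 0.05344). Over its 18 alternatives the adjusted p ran from 0.004326 to 0.444, the last from the t-test that the methods name.

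Bulk RNA does not separate more cells of a type from more RNA per cell, and macrophage markers went both ways in both models. Of 7 tested macrophage markers, 3 rose in EC-Rbpj-KO (Cx3cr1, Csf1r and Ly86) and 1 fell (Cd68), beside 2.0% and 2.96% of all tested genes. Without a call, Ptprc was higher and Cd14 lower on both EC-Rbpj-KO arrays, and Mrc1 and Fcgr1 overlapped. The summed signal of all 8 markers was 2954 to 4232, against 1362 to 1839 in wild type. In EC-N1ICD 1 rose (Ly86) and 0 fell, beside 0.376% and 0.220% of all tested genes. The sums there were 2046 to 2400, against 1816 to 2013 in wild type. Csf1r, which defines the lineage, had 2497 and 1935 in EC-Rbpj-KO yolk sacs, against 965 and 599 in wild type. In EC-N1ICD yolk sacs it had 1293 and 995, against 671 and 730 in wild type (0.70, SE 0.23, adjusted p = 0.228). Cx3cr1, Ptprc and Fcgr1 were also higher on both EC-N1ICD arrays, and Cd68, Mrc1 and Cd14 were lower. The wild type signals of Ly86, 26 to 29, lay below the array medians, which limits the size of its ratios. Cx3cr1 lay below the median on 4 arrays and Fcgr1 on 7. The part of macrophages in the change of Igf1 was not tested.

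Igf2 had signals of 15749 and 14458 in EC-N1ICD yolk sacs and 14253 and 12445 in wild type. The change was 0.18 (SE 0.10, adjusted p = 0.5097), and the 95% interval of the ratio ran from 0.979 to 1.31. In the EC-Rbpj-KO yolk sacs Igf2 had 16806 and 14527, against 15096 and 16187 in wild type. These groups overlapped, and the 95% interval of the ratio ran from 0.864 to 1.16. The second Igf2 probe set had signals of 165 and 184 in the EC-Rbpj-KO yolk sacs and 268 and 237 in wild type, a ratio of 0.691, so the 2 probe sets did not move together.

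Igf1r, the receptor that carries the growth signal, had signals of 240 and 358 in EC-N1ICD yolk sacs, against 261 and 187 in wild type, and of 235 and 176 in EC-Rbpj-KO yolk sacs, against 241 and 141 in wild type. The groups overlapped in both sets, and the changes were 0.41 (SE 0.30, adjusted p = 0.669) and 0.14 (SE 0.30, adjusted p = 0.8383). The intervals were wide, from -0.25 to 1.07 and from -0.52 to 0.80, so changes of up to 2.09-fold in EC-N1ICD lie inside the first. Of its 5 probe sets, 2 had signals under the array median on 7 or 8 arrays. Another, with both EC-N1ICD arrays above wild type, had 123 and 114 against 112 and 47, a ratio of 1.63. The rest overlapped in EC-N1ICD. Igf2r, the clearance receptor, had signals of 1870 and 2120 in EC-N1ICD yolk sacs, against 1749 and 1311 in wild type. Both mutant arrays were higher, with a change of 0.39 (SE 0.17, adjusted p = 0.3673, unadjusted p = 0.03554). The EC-Rbpj-KO yolk sacs had Igf2r signals of 2307 and 1933, against 2326 and 2416 in wild type, both lower, with a change of -0.17 (SE 0.17, adjusted p = 0.6232). The second Igf2r probe set was also lower in EC-Rbpj-KO yolk sacs, at 716 and 499 against 1161 and 1084 in wild type, a ratio of 0.533.

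Among the binding proteins, Igfbp3 is the major carrier of IGF in serum and in many cells restrains growth. It had signals of 985 and 981 in EC-N1ICD yolk sacs, against 261 and 234 in wild type. In EC-Rbpj-KO yolk sacs it had 1260 and 818, against 272 and 241 in wild type. All 4 mutant arrays lay above all 4 wild type arrays, and the wild types of the 2 sets lay in the same range. Igfbp3 rose by 1.99 in EC-N1ICD (SE 0.21, adjusted p = 0.002422) and by 1.99 in EC-Rbpj-KO (SE 0.21, adjusted p = 0.000661), ratios of 3.98 (95% interval 2.90 to 5.46) and 3.97 (2.89 to 5.44). The second Igfbp3 probe set had signals of 530 and 448 in EC-N1ICD yolk sacs and 115 and 136 in wild type, and of 421 and 343 in EC-Rbpj-KO yolk sacs and 181 and 130 in wild type. It gave ratios of 3.90 and 2.48, the same direction as the first. Each rise was called in 17 of 18 alternatives and lost only in the t-test that the methods name, with adjusted p of 0.523 for EC-N1ICD and 0.369 for EC-Rbpj-KO, and the change stayed between 1.91 and 2.07 for EC-N1ICD and between 1.65 and 2.30 for EC-Rbpj-KO. With the high-Xist array (EC-Rbpj-KO replicate 1) left out, Igfbp3 rose by 1.68 (adjusted p = 0.002726).

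Igfbp5, a binding protein that attaches to extracellular matrix, had signals of 596 and 801 in EC-N1ICD yolk sacs, against 397 and 288 in wild type. The groups did not overlap, and the change of 1.03 (SE 0.22, ratio 2.04, 95% interval 1.46 to 2.86) came with an adjusted p of 0.06575, just outside the threshold. It passed in 4 of 18 alternatives. These were centring each array on its median (1.02, adjusted p = 0.03891), quantile normalization (adjusted p = 0.04746), and leaving out EC-Rbpj-KO replicate 1 or 2. The last 2 leave out arrays outside this comparison. With the mean of its probe sets Igfbp5 did not pass (0.73, adjusted p = 0.2695), and without any one array the change ran from 0.80 to 1.26. The EC-Rbpj-KO yolk sacs had Igfbp5 signals of 826 and 1117, against 708 and 648 in wild type, with a change of 0.50 (SE 0.22, adjusted p = 0.2322, unadjusted p = 0.04329). The second Igfbp5 probe set gave ratios of 1.35 in EC-N1ICD, with both arrays above wild type, and 1.01 in EC-Rbpj-KO, where the groups overlapped.

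Igfbp2, the neighbour of Igfbp5 on chromosome 1 and one of the main fetal binding proteins, had signals of 673 and 629 in EC-N1ICD yolk sacs, against 577 and 443 in wild type. In EC-Rbpj-KO yolk sacs it had 665 and 587, against 561 and 500 in wild type. It was higher on both mutant arrays in each set, by 0.36 (SE 0.18, adjusted p = 0.4672) and 0.24 (SE 0.18, adjusted p = 0.5009), and neither change passed. Igfbp4, which mainly inhibits IGF action until the protease PAPP-A cuts it, had signals of 11081 and 11592 in EC-N1ICD yolk sacs, against 13078 and 12256 in wild type. Both mutant arrays were lower, with a change of -0.16 (SE 0.08, adjusted p = 0.4381). Its signals were 13734 and 14211 in EC-Rbpj-KO yolk sacs, against 14087 and 14172 in wild type, and the groups overlapped (-0.02, SE 0.08, adjusted p = 0.935). Of the 6 Igfbp4 probe sets, 4 had both EC-Rbpj-KO arrays below both wild type arrays, with ratios of 0.833, 0.789, 0.717 and 0.633. These 4 are listed from brightest to dimmest, with wild type signals from 10021 and 11359 down to 263 and 287. The other 2 were the brightest, the reported one among them, and gave 0.989 and 0.998. In EC-N1ICD the ratios did not follow brightness, at 0.895 on the brightest probe set and 0.989 on the dimmest. The part of brightness in these ratios was not tested. The ratio of 3' to 5' signal of Actb, a sign of RNA quality, was 1.72 and 1.75 in EC-N1ICD, against 2.10 and 2.34 in wild type, and 2.29 and 2.09 in the EC-Rbpj-KO arrays, against 1.90 and 1.84 in wild type. It moved with genotype in both sets. The same ratio of Gapdh was 2.44 and 2.48 in EC-N1ICD, against 3.12 and 2.76 in wild type. For Gapdh the other set overlapped, with 4.64 and 3.45 in the EC-Rbpj-KO arrays and 3.17 and 3.51 in wild type, and EC-Rbpj-KO replicate 1 stood apart at 4.64. The part of these ratios in the rises of Igfbp3 and Igf1 and in the unequal ratios of the Igf2, Igf2r and Igfbp4 probe sets was not tested.

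Igfbp7, a relative with low IGF affinity that is made by vessels, had signals of 114 and 124 in EC-N1ICD yolk sacs, against 151 and 181 in wild type. In EC-Rbpj-KO yolk sacs it had 352 and 253, against 214 and 217 in wild type. Its arrays were thus lower than wild type in EC-N1ICD (-0.48, SE 0.22, adjusted p = 0.4249) and higher in EC-Rbpj-KO (0.47, SE 0.22, adjusted p = 0.2603), with neither change past the threshold and with overlapping groups on its other 2 probe sets. Igfbp6, which prefers IGF2, had signals of 61 and 57 in EC-N1ICD yolk sacs, against 84 and 55 in wild type, and of 42 and 42 in EC-Rbpj-KO yolk sacs, against 38 and 49 in wild type. These signals are near the array medians, which ran from 38 to 51 between arrays, and both sets overlapped.

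**Figure D2:**
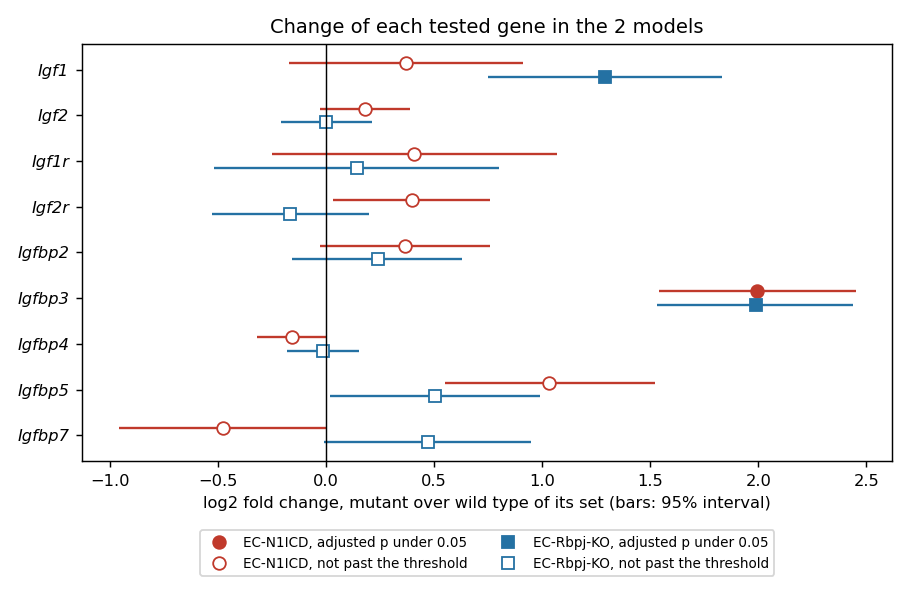
Change of the 9 tested genes (log2 ratio of mutant over wild type, x axis) with 95% intervals from limma, circles for EC-N1ICD and squares for EC-Rbpj-KO, filled where the adjusted p was under 0.05. Igfbp3 is filled at 1.99 in both models, Igf1 at 1.29 in EC-Rbpj-KO, and Igfbp7 is the gene whose estimates lie farthest apart on opposite sides of 0, at -0.48 and 0.47.

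Counted over the family, 1 of 9 tested members rose in EC-N1ICD (Igfbp3), against 0.376% of the 10913 genes tested, and 0 fell, against 0.220%. At an unadjusted p under 0.05, limma put 3 members higher and 0 lower in EC-N1ICD, and the t-test put 1 higher and 0 lower. The share of all tested genes at that unadjusted level was not counted. Unadjusted counts of members and list genes therefore have no background to be read against. In EC-Rbpj-KO 2 of 9 rose (Igf1 and Igfbp3), against 2.0% of all tested genes, and 0 fell, against 2.96%. Over all tested genes 218 rose and 323 fell, and 375 rose and 300 fell when each array was centred on its median, a setting that called the same 2 members. In EC-Rbpj-KO the unadjusted counts were 3 higher and 0 lower with limma, and 1 higher and 0 lower with the t-test. Without overlap between arrays, 6 members lay above wild type and 2 below in EC-N1ICD, where 23.7% of all tested genes lay above and 18.9% below. In EC-Rbpj-KO 5 lay above and 1 below, where 23.3% and 27.5% of all tested genes did. The median change of the 9 members was 0.37 for EC-N1ICD and 0.24 for EC-Rbpj-KO, beside medians of 0.01 and -0.02 over all tested genes. Since the members were chosen with results known, these counts are a description.

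The changes in the 2 models were also set against each other as a contrast of both contrasts. With limma, 0 of 9 members differed between the models after adjustment, against 0.266% of all tested genes, and 3 did at an unadjusted p under 0.05, namely Igf1, Igf2r and Igfbp7; no t-test was run on this contrast. For Igfbp3 the difference, EC-N1ICD minus EC-Rbpj-KO, was 0.00 (SE 0.29, 95% interval -0.64 to 0.65, adjusted p = 0.9963), so a difference of up to about 1.57-fold is inside the interval. For Igf1 it was -0.92 (SE 0.35, adjusted p = 0.3589), for Igf2r 0.56 (SE 0.23, adjusted p = 0.4101), and for Igfbp7 -0.95 (SE 0.31, adjusted p = 0.2988). The rise of Igf1 in EC-Rbpj-KO alone is therefore not shown to be particular to that model.

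**Figure D3:**
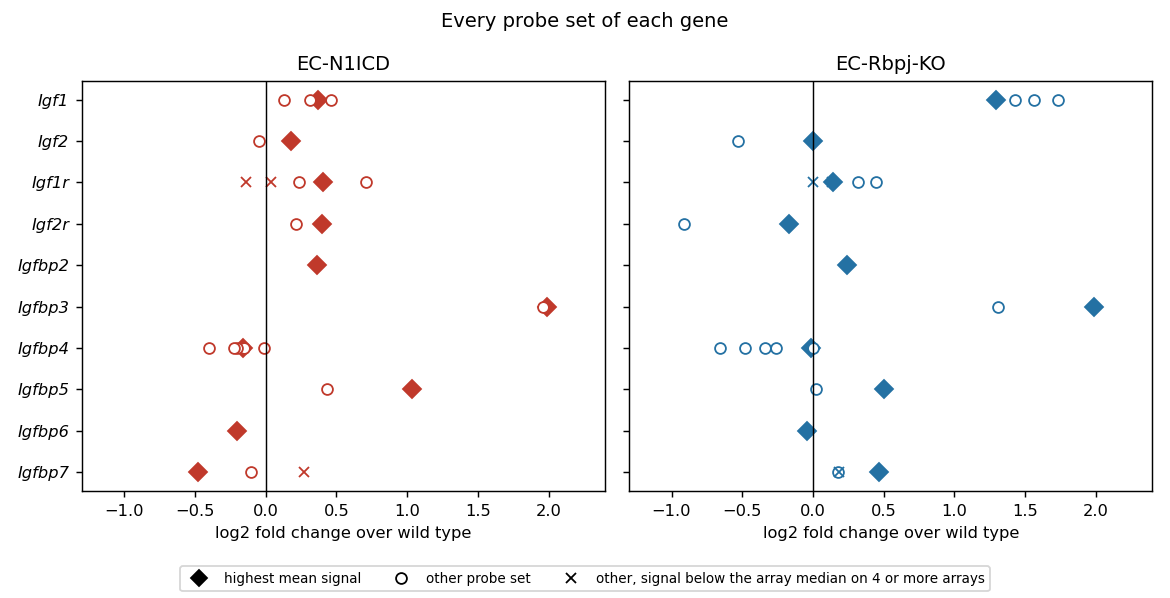
Log2 ratio of mutant over wild type for all 28 probe sets of the 10 genes, EC-N1ICD in the left panel and EC-Rbpj-KO in the right; diamonds are the probe sets with the highest mean signal, circles the others and crosses others below the array median on 4 or more arrays. In EC-Rbpj-KO the 4 Igf1 probe sets lie between 1.29 and 1.74, whereas the second probe sets of Igf2 and Igf2r lie below their diamonds, at -0.53 and -0.91.

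The family member left out of the set, Igfbp1, is the adjoining gene of Igfbp3 and encodes a binding protein that the liver makes under low insulin. It had signals of 2741 and 2218 in EC-N1ICD yolk sacs, against 1681 and 2619 in wild type, and of 7916 and 7654 in EC-Rbpj-KO yolk sacs, against 2552 and 3279 in wild type. The first pair of groups overlapped (0.23, SE 0.20, adjusted p = 0.7409), and in EC-Rbpj-KO Igfbp1 rose by 1.43 (SE 0.20, ratio 2.69, adjusted p = 0.002774), a call that 17 of 18 alternatives kept and the t-test lost (adjusted p = 0.3624). The difference between the models was -1.20 (SE 0.28, adjusted p = 0.1509). The 2 adjoining genes were thus both called in EC-Rbpj-KO, and only Igfbp3 was called in EC-N1ICD.

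The rest of the pathway was read from 4 gene lists, drawn up with earlier results of these data known. Calls in these lists stand beside 0.376% of all tested genes that rose and 0.220% that fell in EC-N1ICD. For EC-Rbpj-KO these shares were 2.0% and 2.96%. Of 26 genes of IGF receptor signaling, 22 were tested, from the adaptors Irs1 and Irs2 to the kinases Akt1 and Mtor, and 0 rose and 0 fell in either model. At an unadjusted p under 0.05, limma put 0 higher and 1 lower for EC-N1ICD and 2 higher and 1 lower for EC-Rbpj-KO. The t-test put 0 higher and 0 lower for EC-N1ICD and 1 higher and 1 lower for EC-Rbpj-KO. The list's median change was -0.06 for EC-N1ICD and -0.10 for EC-Rbpj-KO.

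Of 12 proteases and partners of the binding proteins, 8 were tested, and Pappa, Pappa2, Stc1 and Adam28 were below the filter. In EC-N1ICD 0 rose and 0 fell, with 1 higher and 0 lower at an unadjusted p under 0.05 in limma and 0 in the t-test, and the median change was 0.03. In EC-Rbpj-KO Igfbp1 rose and Adamts1 fell, and the median change was 0.14. Adamts1, a secreted metalloproteinase, had signals of 473 and 375 in the EC-Rbpj-KO yolk sacs, against 742 and 799 in wild type, a change of -0.87 (SE 0.19, adjusted p = 0.02526). In EC-N1ICD yolk sacs it had 385 and 377, against 524 and 397 in wild type (-0.26, SE 0.19, adjusted p = 0.669). The call of Adamts1 was lost without EC-Rbpj-KO replicate 2 (-0.70, adjusted p = 0.1038), without wild type replicate 1 (-0.92, adjusted p = 0.1062) or 2 (-0.82, adjusted p = 0.1861), and with only the 4 arrays of the set (adjusted p = 0.05437).

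Of 8 regulators of the Igf2 locus and its mRNA, 5 were tested. Hmga2, a chromatin protein that promotes fetal growth, rose in EC-N1ICD, with 2607 and 2606 against 1439 and 1221 in wild type (0.98, SE 0.15, adjusted p = 0.01559). Hmga2 had 591 and 577 in EC-Rbpj-KO yolk sacs, against 447 and 472 in wild type (0.35, SE 0.15, adjusted p = 0.2292). Hmga2 was higher on both mutant arrays in each set. Its call in EC-N1ICD rested on all 4 arrays of the set, with adjusted p of 0.1845, 0.08178, 0.0526 and 0.09987 when each was left out, and it was lost with the mean of all its probe sets (0.48, adjusted p = 0.3813). No other gene of the list was called, and the medians were 0.05 for EC-N1ICD and 0.22 for EC-Rbpj-KO.

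Of 13 other proteins with an IGFBP domain, 7 were tested, and 0 were called in either model. At an unadjusted p under 0.05, limma put 4 higher for EC-N1ICD and 1 for EC-Rbpj-KO, the t-test 2 and 0, and none was lower in either test. The median change was 1.01 for EC-N1ICD and 0.38 for EC-Rbpj-KO. Ccn1, a matrix protein that acts through integrins, had signals of 407 and 652 in EC-N1ICD yolk sacs, against 223 and 185 in wild type (1.34, SE 0.39, adjusted p = 0.1773). Ccn2, its relative, had 545 and 716, against 338 and 198 in wild type (1.27, SE 0.41, adjusted p = 0.2135). Esm1, an endothelial proteoglycan, had 390 and 147 in EC-Rbpj-KO yolk sacs, against 102 and 51 in wild type (1.73, SE 0.46, adjusted p = 0.05411), and 111 and 72 in EC-N1ICD yolk sacs, against 34 and 29 in wild type (1.51, SE 0.46, adjusted p = 0.1928). These 3 genes were chosen after their values were seen, and the study also picked Ccn1, Ccn2 and Esm1 from these arrays.

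**Figure D4:**
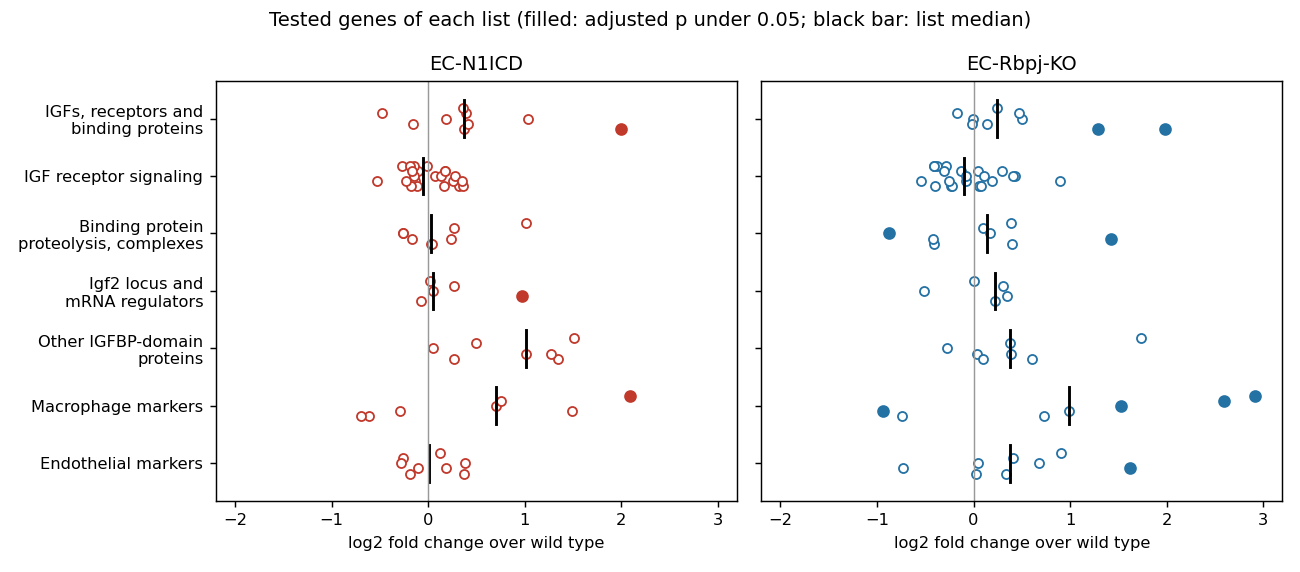
Log2 ratio of mutant over wild type for the tested genes of each list, EC-N1ICD in the left panel and EC-Rbpj-KO in the right; each point is 1 gene, filled where limma's adjusted p was under 0.05, and the black bar is the list median. The 22 receptor signaling genes center near 0 with no filled point, and the other IGFBP-domain proteins have a median of 1.01 in EC-N1ICD, also with no filled point.

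For Igfbp3, the genes most like it were sought by Pearson correlation of log2 signals over the 8 arrays, after each set was centered on its wild type mean. The closest were Tuba1a, an alpha tubulin (r = 0.9935), Tyrobp, an adaptor of myeloid receptors (r = 0.9851), Filip1l (r = 0.9803), Ptpn6, a phosphatase of blood cells (r = 0.9793), and Ch25h, which makes 25-hydroxycholesterol (r = 0.9788). The 8 points fall into 4 groups and were searched among all tested genes, so r describes these arrays and carries no test. Ch25h had 127 and 130 in EC-N1ICD yolk sacs, against 33 and 19 in wild type, and 136 and 101 in EC-Rbpj-KO yolk sacs, against 25 and 31 in wild type. Its wild type signals lay below the array median, which limits the size of its ratio.

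The other cell types of the yolk sac were read from their markers in the same way. Endothelial markers summed to 2480 to 3556 in the EC-Rbpj-KO arrays, against 2082 to 2130 in wild type. Cldn5, at 1095 and 715 (wild type 302 and 273), made up much of that gap and was the only one of 8 tested that was called. Cdh5, Tie1, Esam and Eng were also higher on both EC-Rbpj-KO arrays, and Kdr and Egfl7 overlapped. Pecam1 and Emcn were below the filter but are part of the sums. In EC-Rbpj-KO Pecam1 was higher on both arrays, at signals under the array medians, and Emcn overlapped. Tek went the other way, at 187 and 181 (wild type 276 and 336, change -0.73, SE 0.23, adjusted p = 0.1027), so the list was mixed. The EC-N1ICD sums were 3266 to 3420, against 2890 to 3905 in wild type, and the list was mixed there as well. Cdh5 and Egfl7 were higher on both EC-N1ICD arrays, Emcn was lower (43 and 74, wild type 102 and 114), and the other endothelial markers overlapped. Primitive erythroid markers summed to 46879 to 79254 in EC-N1ICD, against 89822 to 94506 in wild type, and to 53548 to 65394 in the EC-Rbpj-KO arrays, against 66058 to 67817 in wild type, with 0 of 7 called and 7 lower at an unadjusted p under 0.05 in the EC-N1ICD fit with limma, 0 in the t-test. Visceral endoderm markers summed to 160688 to 163485 in EC-N1ICD, against 161840 to 165078 in wild type, and to 158188 to 168869 in the EC-Rbpj-KO arrays, against 168195 to 181582 in wild type. Among them Cubn, which encodes the endocytic receptor cubilin, fell in EC-Rbpj-KO, a call kept in 4 of 18 alternatives. It had 14936 and 17440 in the EC-Rbpj-KO arrays, against 20980 and 19984 in wild type (-0.34, SE 0.08, adjusted p = 0.03238). Mesenchyme markers summed to 48074 to 51120 in EC-N1ICD, against 41936 to 43680 in wild type. In the EC-Rbpj-KO arrays they summed to 46902 to 49750, against 44466 to 45554 in wild type. These sums weigh bright genes most, and Acta2 had 14640 and 13687 in EC-N1ICD, against 7480 and 8684 in wild type. Acta2, Tagln and Pdgfrb were higher on both EC-N1ICD arrays, Col1a1, Col3a1 and Dcn were lower, and the other mesenchyme markers overlapped. Tagln (transgelin, which binds actin in smooth muscle cells) was called higher in EC-N1ICD, with 2728 and 2454 against 783 and 981 in wild type (1.56, SE 0.17, adjusted p = 0.002748), and lost its call without EC-N1ICD replicate 1 (1.49, adjusted p = 0.0676) and in the t-test. Pdgfra, a growth factor receptor of mesenchyme, had 200 and 283 in the EC-Rbpj-KO arrays, against 387 and 462 in wild type, and fell by 0.83 (SE 0.21, adjusted p = 0.04361), a call kept in 3 of 18 alternatives. These were the only calls among the visceral endoderm and mesenchyme markers in either model. Decidual and trophoblast markers were mostly below the filter, with 1 of 6 and 0 of 3 matched genes tested. The part of these cell types in the changes of Igfbp3 and Igf1 was not tested, nor was that of macrophages in the change of Igfbp3.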

How the data were processed

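The deposited table holds 1 intensity per probe set and array for 45101 probe sets, linear signals from 7 to 36554 that the authors summarised with MAS5, per the labels. The MAS5 version and its scaling target are not given in the sources used here, and detection calls were not used here. The design text names the Mouse 430A array, whereas the probe sets matched the annotation of a larger whole-genome mouse array. Of the probe sets, 34958 name 1 gene, 932 several and 9211 none, and those of several genes (one shared by Airn and Igf2r among them) or of no gene were left out.

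Samples were grouped by source name, title and genotype. A filter on the mean signal of each of 18194 genes, set at the 40th percentile, left 10913 to be tested, the dimmest with a mean of 68. Log2 signals, with no constant added, entered a fit by limma 3.58.1 (R 4.3.3; 4 group means, contrasts within a set, eBayes with trend, 4 residual and 7.37 prior degrees of freedom), two-sided, with Benjamini-Hochberg adjustment at 0.05. Scripts ran in Python 3.11.15, and the fit was tested on simulated data. The median signal was 436 to 582 over the tested genes between arrays. Precision is limited by the number of arrays.

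Members and gene lists were chosen with earlier results of these data known. The text names every member, the list genes past the threshold, Rbpj and Notch1, and the 5 genes most like Igfbp3. Esm1, Ccn1, Ccn2, Csf1r, Xist and Eif2s3y were otherwise named for context after their values were seen. So were the list genes given as examples without a call. Alternatives were other filters, an added constant of 16, median centring, quantile normalization, the mean of all probe sets, the 4 arrays of a set alone, eBayes without trend, the t-test that the methods name, and leaving out each array. In each set mutant replicate 2 shares the first number of its sample name with both wild types and mutant replicate 1 does not; the main fit has no block, and a fit to the 6 arrays that share a number was added after seeing the data.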

Additional observations from a re-analysis of the deposited data

How the results depend on the processing

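With 1 member called for EC-N1ICD and 2 for EC-Rbpj-KO, the counts were 2 and 2 after centring each array on its median or quantile normalization, 1 and 1 with only the 4 arrays of a set, 0 and 0 in the t-test that the methods name, and 1 to 2 in each model without any one array. The count of members that differed between the models was 0 in all 16 alternatives run on it. Over all tested genes, 65 were called in EC-N1ICD, and this count was 27 with the filter at the 60th percentile, 106 after centring, 119 after quantile normalization, 103 with only the 4 arrays of the set, 0 in the t-test, and 7 to 140 without any one array, lowest without EC-N1ICD replicate 1 and highest without EC-Rbpj-KO replicate 2. In EC-Rbpj-KO 541 were called, and the count was 266 with only the 4 arrays of the set, 1 in the t-test, and 147 to 628 without any one array, lowest without wild type replicate 2 of that set. Of 29 genes that differed between the models, 17 did with the mean of all probe sets, 3 with eBayes without trend, and 5 to 80 without any one array. Directions turned only for changes that were not called: Igf2 in EC-Rbpj-KO was 0.07 after centring, 0.10 without EC-Rbpj-KO replicate 2 and 0.05 without wild type replicate 2, in a range without any one array of -0.11 to 0.10. Igf1r in EC-Rbpj-KO was -0.07 without EC-Rbpj-KO replicate 1 and -0.24 without wild type replicate 2 (range -0.24 to 0.53). Igfbp4 in EC-Rbpj-KO was 0.06 after centring and 0.01 without EC-Rbpj-KO replicate 1 (range -0.04 to 0.01). Igfbp1 in EC-N1ICD was -0.09 without wild type replicate 1 of that set (range -0.09 to 0.55), and Rbpj was 0.17 in EC-N1ICD once its replicate 1 was left out (range -0.22 to 0.17). The cause of these shifts was not tested. With 2 arrays a group, a fit that leaves out 1 array assumes that the lone array varies like the other groups. Blocking on the first number of the sample names, an alternative chosen after seeing the data, leaves replicate 1 of each mutant alone in its block, so it was fitted as the other 6 arrays alone. It called 1 member in each model, 26 genes for EC-N1ICD, 431 for EC-Rbpj-KO and 17 between the models, with Igf1r at -0.07 and Igfbp4 at 0.01 in EC-Rbpj-KO and Rbpj at 0.17 in EC-N1ICD. Cubn in EC-N1ICD was 0.0009 after quantile normalization. Low signals near background limit Igfbp6 and the dimmer probe sets.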
